A study of Homo sapiens with 8 samples.

Results

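Skipped-exon use was compared between 2 untreated human breast epithelial cell lines, HMLE TWIST and MCF10A, with 2 libraries each. MCF10A is a non-tumorigenic breast epithelial line. HMLE TWIST is an immortalized breast epithelial line that overexpresses TWIST from a retroviral pBabe construct integrated in its genome. All 4 libraries came from cells kept for 24 h in the solvent DMSO, and they are 4 of the 8 libraries of the series. The other 4 libraries, the same lines kept for 24 h in 10 µM emetine, serve here only as a second view of the same line difference. No HMLE line without TWIST is among the samples, so the effect of TWIST, the origin of the line and any difference in culture or library batch cannot be told apart.

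A skipped-exon event is a middle exon with its upstream and downstream neighbour, counted by the reads that join the exon to its neighbours (inclusion) and those that join the neighbours directly (skipping). The events of the series' tables for the separate lines were joined on the coordinates of all 3 exons, and an event was kept where each of the 4 DMSO libraries had at least 20 junction reads. This kept 47423 of the 123924 events of the series, on 38155 exons of 8952 genes. The inclusion level is the share of length-scaled junction reads that include the exon, from 0 to 1, and every difference below is the mean level in HMLE TWIST minus the mean level in MCF10A.

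Epithelial-mesenchymal transition (EMT) is the programme by which epithelial cells loosen their junctions and become motile, and TWIST1 is among the transcription factors that drive it. It is accompanied by exon switches that change the protein made without changing whether the gene is on. In epithelial cells the RNA-binding proteins ESRP1 and ESRP2 direct many of these exons, while RBFOX2, QKI and other factors act on mesenchymal forms. Textbook cases are the variable exons of CD44, the early exons of CTNND1, and short exons of ENAH, ARHGEF11 and other regulators of the cytoskeleton and membranes.

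Sequences were read from GENCODE 29 transcripts (GRCh38) for the 28 named coding exons of 100 nt or less that could be matched. Those of the largest switches are printed 5′ to 3′ in the sense of the transcript, to show how short the switched segments are. Capitals mark the skipped exon and lower case marks the adjoining 9 nt of the exon on each side. The first set was included more in HMLE TWIST.
ARHGEF11: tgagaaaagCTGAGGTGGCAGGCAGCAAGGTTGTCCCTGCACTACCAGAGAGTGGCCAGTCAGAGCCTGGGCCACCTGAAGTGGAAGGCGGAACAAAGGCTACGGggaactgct
CLSTN1: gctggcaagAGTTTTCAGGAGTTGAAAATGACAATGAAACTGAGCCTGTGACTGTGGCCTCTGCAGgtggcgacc
NFYA: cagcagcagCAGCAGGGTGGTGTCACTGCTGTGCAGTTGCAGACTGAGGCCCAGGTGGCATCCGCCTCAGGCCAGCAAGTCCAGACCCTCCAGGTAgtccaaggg
PLEKHA1: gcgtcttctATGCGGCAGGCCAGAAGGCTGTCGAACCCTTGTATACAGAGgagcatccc
KIF21A: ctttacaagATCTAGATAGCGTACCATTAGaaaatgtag
SPAG9: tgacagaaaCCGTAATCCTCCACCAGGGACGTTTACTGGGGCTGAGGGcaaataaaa
CSNK1G3: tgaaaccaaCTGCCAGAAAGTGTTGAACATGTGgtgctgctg
CAST: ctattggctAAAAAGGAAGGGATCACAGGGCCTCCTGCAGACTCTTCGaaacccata
NAV2: aagaactggGTCAATGAGttacgcagc
ABI1: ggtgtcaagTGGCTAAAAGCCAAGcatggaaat
The second set was included more in MCF10A.
DNM2: cccaatcagGGGGAGATCCTGgtgatccgc
ARFGAP2: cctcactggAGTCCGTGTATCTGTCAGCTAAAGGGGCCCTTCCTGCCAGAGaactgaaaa
USO1: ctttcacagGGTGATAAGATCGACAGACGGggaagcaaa
MYO18A: ccaccaaagAAGCTGCTGAAGctgggcgca
SPTAN1: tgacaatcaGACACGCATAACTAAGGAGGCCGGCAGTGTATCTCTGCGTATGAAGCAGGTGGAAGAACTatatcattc
SLK: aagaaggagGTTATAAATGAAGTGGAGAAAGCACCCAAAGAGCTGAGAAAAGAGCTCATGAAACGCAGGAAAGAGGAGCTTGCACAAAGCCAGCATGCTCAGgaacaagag

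The 4 DMSO libraries held between 78412292 and 91259363 junction reads over all listed events, and the median event of the comparison had 312 to 363 reads per library. Replicates differed by a median of 0.0116 in inclusion level in MCF10A and 0.0131 in HMLE TWIST. The series' design names biological replicates, but the values inside a table cell carry no replicate number. The tables hold no gene counts, so the identity of the lines was read from each gene's junction reads per 1000000 reads of all listed events (RPM), without a test. Of the 30 epithelial marker genes 23 were listed, and all 23 had more reads in both MCF10A libraries, with sums of 6208 and 5933 RPM against 15.4 and 19.6 in HMLE TWIST. KRT5, a basal keratin, had 1821 and 1741 RPM in MCF10A and no read in a listed event of HMLE TWIST, and CDH1 (E-cadherin) had 68.6 and 69.1 against 0.0219 and 0. Of the 30 mesenchymal marker genes 29 were listed, and 27 had more reads in both HMLE TWIST libraries, with sums of 56203 and 56826 RPM against 444 and 462. The 2 exceptions, FAP and TCF4, had more reads in MCF10A. Among immune markers CD68, PTPRC and CD79A were listed for HMLE TWIST only. CD68, which is not restricted to immune cells, had 91.2 and 104.9 RPM, while PTPRC, the leukocyte marker CD45, had 1 read in each library and CD79A had 6 and 5, and no endothelial marker was listed. A table lists only events with reads of both forms, so a gene without a listed event may still be expressed. Fewer cells of a type cannot be told apart from less RNA per cell. The listed events also differ between the lines, so these RPM reflect in part which events were listed. Over events listed for both lines, each marker with reads kept its direction in the mean. There VIM had 7.55 times the MCF10A level in HMLE TWIST. KRT8 had 0.757 and 0.468 reads per 1000000 reads of those events in MCF10A against 0.423 and 0.636, so its libraries overlapped.

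**Figure D1:**
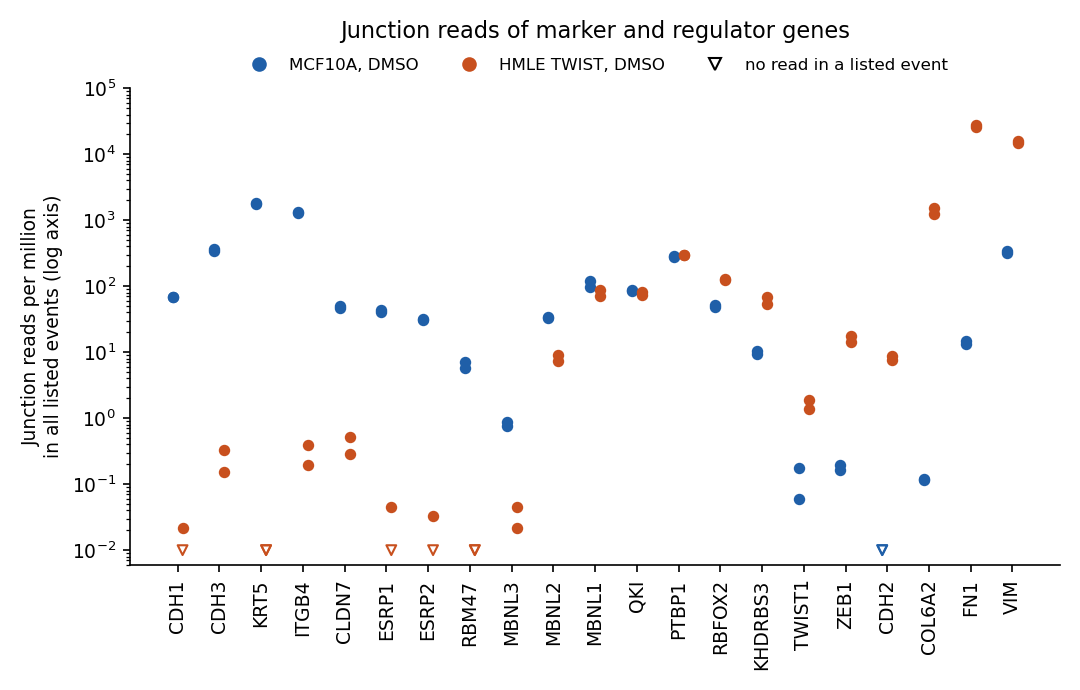
Junction RPM over all listed events (log axis) of marker and splicing regulator genes in each DMSO library. Blue points are MCF10A, orange points HMLE TWIST, and open triangles stand for no read in a listed event. CDH1, KRT5, ESRP1 and ESRP2 lie high in MCF10A, while VIM, FN1, ZEB1 and CDH2 lie high in HMLE TWIST.

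Of the joined events 19301, on 16799 exons of 6866 genes, had at least 10 reads of the rarer form and were tested. Each was fitted with a quasi-binomial model of its counts, and an event was called changed at a Benjamini-Hochberg adjusted p-value below 0.05 and a difference of at least 0.1. The lines differed at 1250 events (6.48% of those tested) on 1174 exons of 922 genes (13.4% of the genes tested). Inclusion was higher in HMLE TWIST at 415 events (2.15%) and higher in MCF10A at 835 events (4.33%). The share higher in MCF10A was thus 66.8% (Wilson 95% interval 64.1 to 69.4%, counting error only, and events of a gene share reads). Among all tested events 61.8% had the lower level in HMLE TWIST, with a median difference of -0.00368. Levels of the 2 libraries of a line did not overlap those of the other line at 99.8% of the changed events and at 55.1% of all tested events.

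The median difference was 0.203 at events higher in HMLE TWIST and -0.186 at events higher in MCF10A. Events higher in HMLE TWIST had a median level of 0.347 in MCF10A and 0.670 in HMLE TWIST, and those higher in MCF10A stood at 0.791 there and 0.507 in HMLE TWIST. The median replicate SD of the changed events was 0.0230 in MCF10A and 0.0286 in HMLE TWIST (n = 2 each). Differences of at least 0.3 were found at 109 events in the direction of HMLE TWIST and 162 in that of MCF10A. Differences of at least 0.5 were found at 26 and 30 events, in 45 genes. Close to the size threshold lay IFI27L1 with a difference of 0.10002 inside it and BCAT2 with -0.0998 outside it.

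These counts rest on a spread shared across events. The quasi-binomial model moderates each event's dispersion towards a common 1.90, since 2 libraries per line leave each event little information of its own. limma on the log2 odds of inclusion called 36 events (0.187%), 15 higher in HMLE TWIST and 21 higher in MCF10A, and had 4070 at an unadjusted p below 0.05. With each event's own dispersion alone no event was called, with 1436 at an unadjusted p below 0.05. Leaving out the first or second MCF10A library gave 823 and 812 changed events, and leaving out the first or second HMLE TWIST library gave 438 and 416. Each of these fits compares 1 library with 2, so the spread within lines comes from the other line alone, moderated across events, and the lone library is assumed to vary like it. This holds for every call kept or lost without a library below. The 21 exons described first below were called by both the quasi-binomial model and limma, with limma adjusted p-values of 0.0408 to 0.0465.

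**Figure D2:**
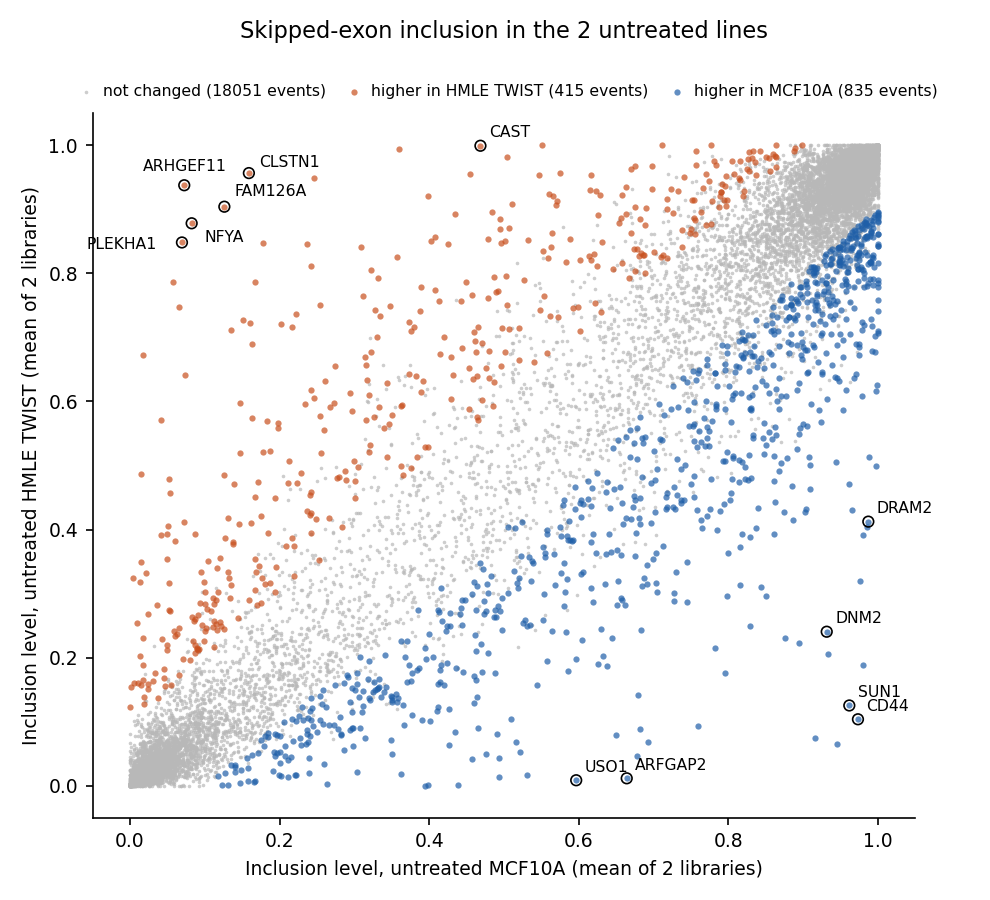
Mean inclusion level of each of the 19301 tested events in untreated MCF10A (horizontal axis) and untreated HMLE TWIST (vertical axis), 2 libraries each. Orange points are the 415 events higher in HMLE TWIST, blue points the 835 higher in MCF10A, and named circles are exons called by both models with a difference of at least 0.5.

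Among the 11 exons higher in HMLE TWIST, 5 stood below 0.2 in both MCF10A libraries and above 0.8 in both HMLE TWIST libraries. ARHGEF11, an exchange factor for small GTPases, had a 96-nt coding exon (chr1:156908210-156908305, GRCh37) at 0.0746 and 0.0704 in the MCF10A libraries and 0.933 and 0.942 in those of HMLE TWIST. Its difference was 0.865 (quasi-binomial adjusted p = 9.18e-33). The 57-nt exon of CLSTN1 (chr1:9797556-9797612), which encodes a membrane protein that links vesicles to kinesin, stood at 0.164 and 0.154 against 0.956 and 0.957, on at least 1234 reads per library. NFYA, the subunit of the NF-Y factor whose isoforms differ in their activation domain, had an 87-nt exon (chr6:41048550-41048636) at 0.0824 and 0.0824 in MCF10A and 0.876 and 0.880 in HMLE TWIST. In all 3 genes the replicates lay within 0.02 of each other while the lines stood at opposite ends of the scale. Close replicates favour a call by limma, which was a condition of being named.

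PLEKHA1, a phosphoinositide-binding adaptor, included its 41-nt exon (chr10:124187792-124187832) at 0.0642 and 0.0746 in MCF10A and 0.850 and 0.847 in HMLE TWIST. This exon is not a multiple of 3, so the reading frame after it differs between the forms. A 215-nt exon of FAM126A (chr7:22986652-22986866), annotated only in a noncoding transcript, stood at 0.142 and 0.110 against 0.895 and 0.913. CAST, the gene of the calpain inhibitor calpastatin, used its 39-nt exon (chr5:96076449-96076487) in about equal measure with skipping in MCF10A, at 0.471 and 0.467, and almost always in HMLE TWIST, at 0.9994 and 0.9992.

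Smaller switches in this direction began from rare use in MCF10A. FAT1, an atypical cadherin, had a 36-nt exon (chr4:187511522-187511557) at 0.00622 and 0.00230 in MCF10A and 0.333 and 0.317 in HMLE TWIST. The 15-nt exon of ABI1 (chr10:27060004-27060018), a subunit of the WAVE complex that drives actin branching, stood at 0.00151 and 0.00163 against 0.169 and 0.139. The last 2 of the set reached full inclusion in HMLE TWIST. TBC1D31 used a 195-nt exon at 0.542 and 0.561 in MCF10A. No skipping read was counted among 103 and 84 reads in HMLE TWIST, which allows up to 2.91% and 3.57% of the unscaled reads. This and every such bound below is 3 reads over the junction reads without length scaling. It is therefore not on the scale of the inclusion levels. PFAS, a purine synthesis enzyme, had a 181-nt exon at 0.911 and 0.887 in MCF10A, with no skipping read among 801 and 643 in HMLE TWIST (up to 0.375% and 0.467%). The difference of PFAS, 0.101, lay at the size threshold and fell to 0.0891 without the second MCF10A library.

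The 10 exons higher in MCF10A were led by a variable exon of CD44, the hyaluronan receptor. This 102-nt exon (chr11:35229652-35229753), counted between the upstream constant exon and the next variable exon but one, stood at 0.976 and 0.971 in MCF10A and 0.113 and 0.0943 in HMLE TWIST, a difference of -0.870 (quasi-binomial adjusted p = 3.50e-30). An 84-nt exon of SUN1 (chr7:889157-889240), an inner nuclear membrane protein that couples the nucleus to the cytoskeleton, stood at 0.953 and 0.971 against 0.144 and 0.107. DNM2, the GTPase that severs budding vesicles, carried a 12-nt exon (chr19:10919245-10919256) at 0.938 and 0.926 in MCF10A and 0.245 and 0.236 in HMLE TWIST, on at least 944 reads per library. At these 3 events both MCF10A libraries stood above both HMLE TWIST libraries, and such non-overlap was a condition of being named. The level of the CD44 exon depends on the neighbours it is counted with and is no share of all CD44 transcripts.

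A pair of Golgi transport genes had an exon near 0 in HMLE TWIST and at an intermediate level in MCF10A. ARFGAP2, which switches off the small GTPase ARF1 on the Golgi, had its 42-nt exon (chr11:47194261-47194302) at 0.635 and 0.694 in MCF10A and 0.00788 and 0.0155 in HMLE TWIST. USO1, a tether of vesicles at the Golgi, had its 21-nt exon (chr4:76716489-76716509) at 0.568 and 0.626 against 0.00739 and 0.00997. A 196-nt untranslated exon of USMG5 (chr10:105153956-105154151), a subunit of the mitochondrial ATP synthase, likewise stood at 0.504 and 0.484 against 0.0116 and 0.0173.

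Of the 4 remaining exons in this direction, 3 lie in genes of metabolic enzymes. CA12, a carbonic anhydrase of the cell surface, included a 33-nt exon (chr15:63620297-63620329) at 0.381 and 0.417 in MCF10A. In HMLE TWIST its level was 0.00136 in the first library, and no inclusion read was found among 493 in the second, which allows a share of up to 0.609%. ME1, the cytosolic malic enzyme, included a 150-nt exon (chr6:84108086-84108235) at 0.998 in the first MCF10A library, without a skipping read among 1259 in the second (up to 0.238%), and at 0.625 and 0.627 in HMLE TWIST. AMACR, a racemase of branched-chain fatty acid breakdown, had no skipping read of its 161-nt exon among 287 and 265 in MCF10A (up to 1.05% and 1.13%), against levels of 0.628 and 0.792 in HMLE TWIST. The fourth, a 124-nt exon of the lysosomal membrane protein gene DRAM2 (chr1:111682210-111682333), stood at 0.987 and 0.988 against 0.349 and 0.476. It is annotated only in a noncoding transcript.

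**Figure D3:**
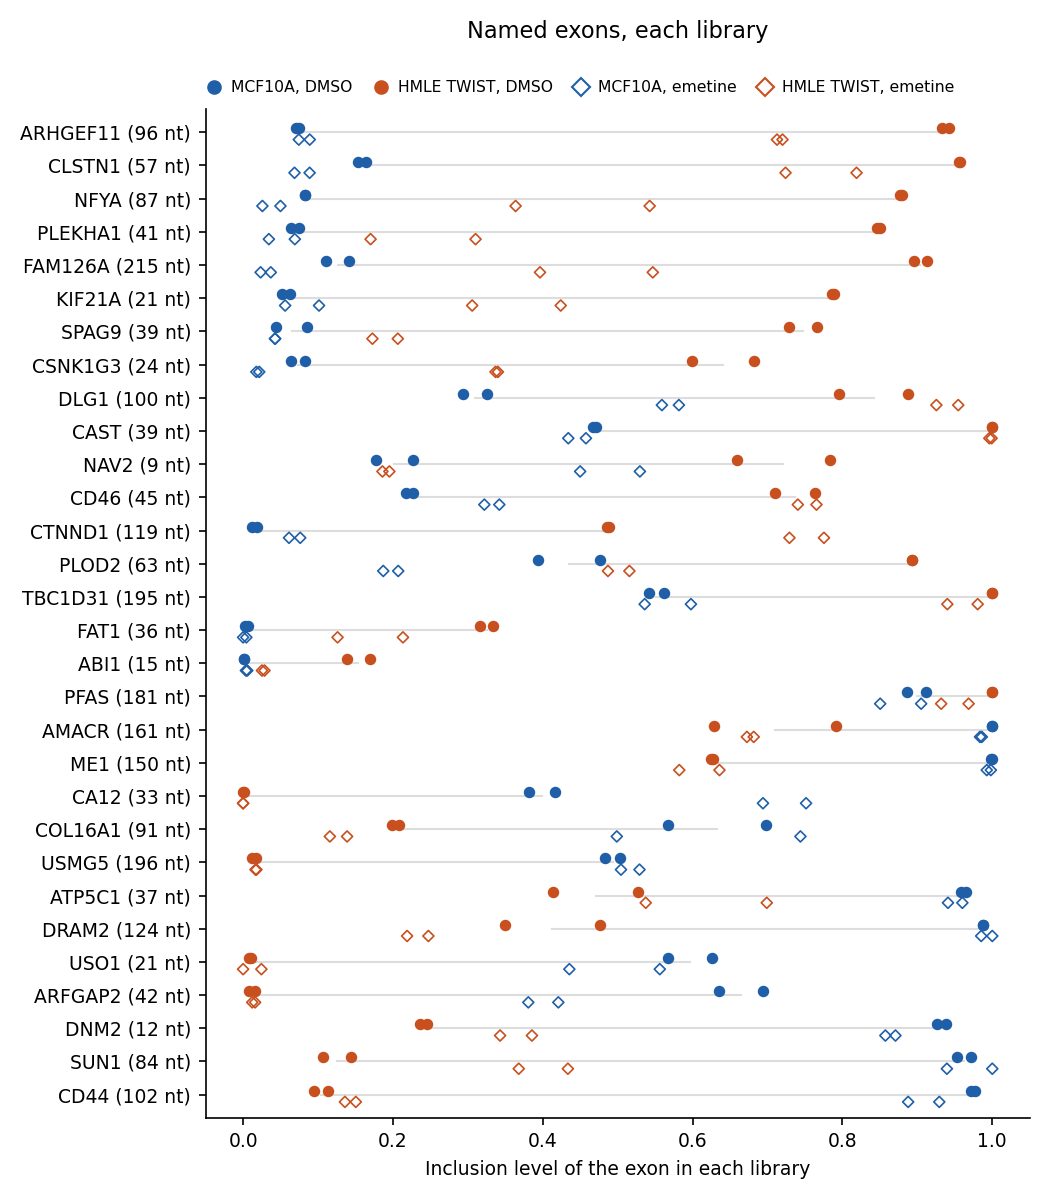
Inclusion level of the named exons in each library (horizontal axis), with 1 exon per row. Filled circles are the DMSO libraries, open diamonds the emetine libraries, blue MCF10A and orange HMLE TWIST, and the grey line joins the DMSO means. The circles of the lines lie apart in every row, as at 99.8% of all changed events, and the orange diamonds of NAV2 lie below its blue ones. The HMLE TWIST diamonds of CA12 rest on as few as 4 reads.

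Genes with exons known to change in EMT formed the list with the largest share of changes among the 6 lists given here. Every tested event of these genes was counted, not only the exons known to change, so the shares are not shares of known EMT exons. Of its 74 genes 67 were tested and 54 had a changed event (80.6%, against 13.4% of all genes tested). At the level of events, 99 of 337 changed (29.4%, against 6.48%), 53 higher in HMLE TWIST and 46 higher in MCF10A. The median absolute difference was 0.0446 in the list and 0.0165 over all tested events. limma called 19 of the 337. The list's genes differ from the others in how many events each has, and no share was tested against chance. This list and the others were chosen with earlier results of these data known, so their shares are not independent of the data. The genes tested without a changed event included DST, CD47, TSC2, MINK1, ACTN1, MYH10, LRRFIP2, EPB41L5, INF2, TJP1, CTTN and ECT2, whereas EPB41, FGFR2, GRHL1, LSR, SLC39A14 and SYNE2 had no event that met the conditions of the test, and FAM62B had no listed event.

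Of the 20 exons of largest difference in genes of the list, 1 per gene, 13 were higher in HMLE TWIST, 7 were higher in MCF10A, 15 had a length that is a multiple of 3, and 11 were also called by limma. Beyond those given above, the 21-nt exon of the kinesin KIF21A (chr12:39724044-39724064) stood at 0.0621 and 0.0516 in MCF10A and 0.789 and 0.785 in HMLE TWIST, on as few as 22 reads. SPAG9, a scaffold of JNK signalling on transport vesicles, had a 39-nt exon (chr17:49053224-49053262) at 0.0854 and 0.0445 against 0.729 and 0.766. CSNK1G3, a membrane-bound casein kinase, had a 24-nt exon (chr5:122941033-122941056) at 0.0635 and 0.0829 against 0.599 and 0.682. The replicates of HMLE TWIST spread more in SPAG9 and CSNK1G3 than in ARHGEF11 or CLSTN1, and limma's adjusted p was 0.0636 for SPAG9 and 0.0655 for CSNK1G3.

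Other list members had intermediate levels in one line. A 100-nt exon of DLG1, a polarity scaffold, stood at 0.293 and 0.325 in MCF10A and 0.795 and 0.888 in HMLE TWIST. The 45-nt exon of CD46, which encodes a serine- and threonine-rich stretch of this complement regulator, stood at 0.227 and 0.217 against 0.764 and 0.710. PLOD2, a lysyl hydroxylase of collagen, had its 63-nt exon at 0.476 and 0.394 against 0.893 and 0.893. The 9-nt exon of NAV2, a microtubule-binding protein, was the shortest of the named exons, at 0.177 and 0.226 against 0.659 and 0.783. All 4 were higher in both HMLE TWIST libraries than in either MCF10A library, and such non-overlap held at 99.8% of all changed events. limma called none of the 4 (adjusted p 0.0756 to 0.0888).

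In the opposite direction, a 37-nt exon of ATP5C1, the gamma subunit of the mitochondrial ATP synthase, stood at 0.965 and 0.958 in MCF10A and 0.528 and 0.413 in HMLE TWIST. limma called neither this exon (adjusted p = 0.0644) nor the COL16A1 exon that follows (adjusted p = 0.106). COL16A1, a collagen gene, had a 91-nt exon at 0.567 and 0.697 against 0.199 and 0.208. This exon is annotated only in a noncoding transcript and was counted on as few as 27 reads. Its adjusted p of 0.00227 rose to 0.0930 without the second MCF10A library, and to 0.104 and 0.105 without the first and second HMLE TWIST library. ATP5C1 kept its call without any single library.

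The most studied members of the list are given by their best-known exons, which were chosen after their values were seen. ENAH, an actin regulator, included its 63-nt exon (chr1:225692693-225692755) at 0.377 and 0.349 in MCF10A and 0.0201 and 0.0154 in HMLE TWIST, a difference of -0.345 (quasi-binomial adjusted p = 2.44e-39, limma 0.0579). FN1, fibronectin, included a 273-nt exon (chr2:216257654-216257926), which encodes the extra domain B, at 0.0533 and 0.138 in MCF10A and 0.337 and 0.330 in HMLE TWIST. ITGA6, the alpha 6 integrin, had a 130-nt exon near its cytoplasmic end at 0.931 and 0.927 against 0.728 and 0.816. MPRIP, a myosin phosphatase adaptor, had a 63-nt exon at 0.196 and 0.170 against 0.595 and 0.545. RPS24, a ribosomal protein with processed copies in the genome that make its counts less certain, had a 22-nt exon at 0.0566 and 0.0449 against 0.398 and 0.413, on at least 9115 reads. ENAH and ITGA6 were higher in MCF10A, and FN1, MPRIP and RPS24 were higher in HMLE TWIST.

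CD44 was tested at 26 events on 11 exons, and 10 events on 5 exons changed. Counted between the constant exons on both sides, the 102-nt variable exon stood at 0.416 and 0.462 in MCF10A and 0.00155 and 0.00142 in HMLE TWIST, on at least 2878 reads. The 204-nt variable exon, counted between the same constant exons, stood at 0.516 and 0.545 against 0.0157 and 0.0191. The 90-nt exon between them, counted between the upstream constant exon and the 204-nt exon, stood at 0.984 and 0.977 against 0.234 and 0.141. Together 8 of the 10 changed events were higher in MCF10A, with differences from -0.880 to -0.151. The other 2 were higher in HMLE TWIST, an upstream 126-nt variable exon at 0.161 and 0.134 against 0.662 and 0.535 and a 129-nt one at 0.179 and 0.147 against 0.718 and 0.661, both counted with the 102-nt exon as downstream neighbour. The same 126-nt exon, counted between the constant exons, was lower in HMLE TWIST, at 0.160 and 0.156 against 0.00924 and 0.00592. In CD44 the direction of an exon therefore depends on the neighbours it is counted with, and these events share reads.

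CTNND1, or p120-catenin, which binds the tail of cadherins, changed towards HMLE TWIST at each of its 8 changed events. Its 119-nt untranslated exon (chr11:57556509-57556627) stood at 0.0180 and 0.0119 in MCF10A and 0.486 and 0.488 in HMLE TWIST when counted against the exon after next, on at least 442 reads. Against the next exon, taken from its later start, it stood at 0.370 and 0.349 against 0.994 and 0.994, on as few as 29 reads. A 289-nt exon that follows it, partly coding, stood at 0.185 and 0.211 against 0.577 and 0.556.

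RNA-binding proteins known to regulate exons in genes of this list differed in their reads. ESRP1 had 1994 and 1901 junction reads in MCF10A and 0 and 4 in HMLE TWIST over the events listed for both lines, and ESRP2 had 661 and 667 against 0 and 3. RBM47, another epithelial regulator, had 552 and 482 reads in MCF10A and no listed event in HMLE TWIST. KHDRBS3 had 5.75 times and RBFOX2 1.91 times the MCF10A level in HMLE TWIST, as RPM over joined events. MBNL2 was at 0.516 times and PTBP1 at 1.08 times, and these 4 genes had the same direction as RPM over all listed events. MBNL2 then stood at 33.7 and 32.5 RPM in MCF10A and 7.37 and 9.09 in HMLE TWIST. QKI and MBNL1 were at 1.21 and 1.18 times over joined events, but the direction turned over all listed events. QKI then stood at 89.0 and 83.6 RPM in MCF10A against 81.4 and 73.2, and MBNL1 at 118 and 95.9 against 88.5 and 71.0. These values come from event reads, not gene counts, and were not tested. TWIST1 had a single joined event, with 14 and 5 reads in MCF10A and 126 and 168 in HMLE TWIST, and whether they come from its own locus or the integrated copy was not tested.

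Exon use inside the regulators themselves changed in 4 of the 18 tested, and 4 of their 69 events changed (5.80%, near the 6.48% of all events). All 4 were lower in HMLE TWIST. MBNL2 had a 95-nt exon (chr13:98018713-98018807) at 0.864 and 0.858 in MCF10A and 0.447 and 0.339 in HMLE TWIST. Its paralogue MBNL1 had a 54-nt exon (chr3:152164493-152164546), which encodes part of a nuclear localisation signal, at 0.574 and 0.620 against 0.206 and 0.191. These exons read as follows, with the same use of capitals as above.
MBNL1: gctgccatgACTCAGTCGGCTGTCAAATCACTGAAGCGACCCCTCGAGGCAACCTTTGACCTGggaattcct
MBNL2: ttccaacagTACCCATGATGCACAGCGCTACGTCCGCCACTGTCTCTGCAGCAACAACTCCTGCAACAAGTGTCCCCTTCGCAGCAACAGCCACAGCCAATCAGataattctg
CELF1 had a 152-nt exon at 0.470 and 0.468 against 0.297 and 0.146, and its call was lost without the second HMLE TWIST library (adjusted p = 0.122). HNRNPH1, which has close paralogues, had a 179-nt exon of a decay-targeted transcript at 0.701 and 0.583 against 0.531 and 0.338. Its difference of -0.207 was not called when any 1 library was left out, with adjusted p-values from 0.0654 to 0.455, and it fell in size to -0.111 without the second HMLE TWIST library. limma called none of the 4. In the 14 regulators with no changed event, the largest differences ran from -0.107 in TIA1 to 0.0189 in HNRNPA1, and that of RBFOX2 was -0.0441 and that of QKI -0.0119.

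**Figure D4:**
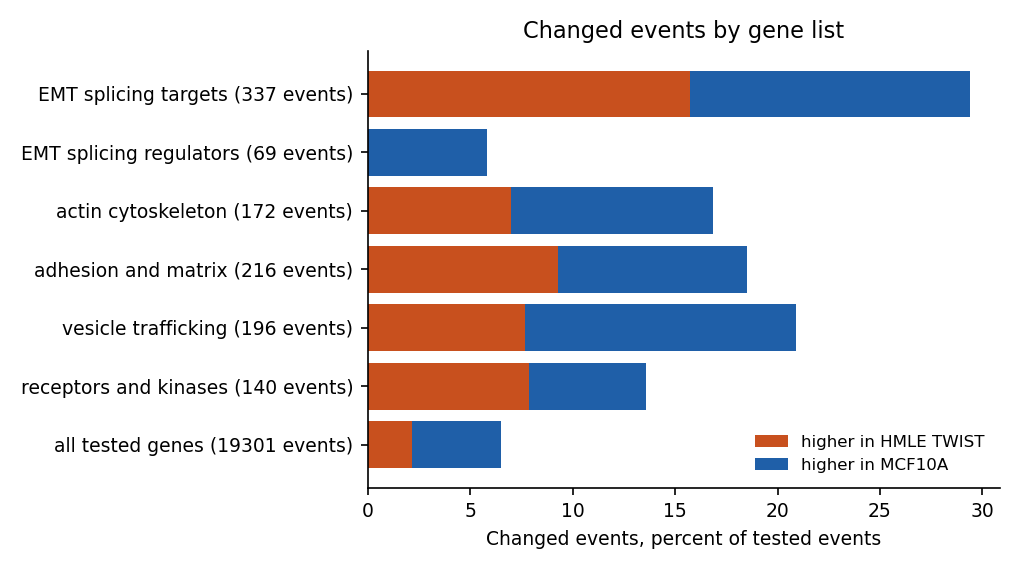
Changed events as a percent of the tested events of each gene list (horizontal axis), split by direction, with the number of tested events beside each name. The list of genes with EMT splicing targets, counted over all their tested events, reaches 29.4%, the other lists lie between 5.80% and 20.9%, and all tested events stand at 6.48%. The lists overlap.

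Actin cytoskeleton genes changed in 17 of 46 tested (37.0%, against 13.4% of all genes tested). The events were 12 higher in HMLE TWIST and 17 higher in MCF10A (16.9% of 172 events, against 6.48% of all). limma also called 1 of them. This list and those below share genes with the EMT list, and no share was tested against chance. The exons given here, each the largest difference of its gene, were higher in MCF10A. limma called none of these exons (adjusted p 0.0644 to 0.0914). TPM1 and MYO18A each also had 1 changed event higher in HMLE TWIST. SPTAN1, the non-erythroid alpha spectrin, had a 60-nt exon (chr9:131355262-131355321) at 0.897 and 0.892 in MCF10A and 0.269 and 0.177 in HMLE TWIST. TPM1, a tropomyosin, had a 76-nt exon of a decay-targeted transcript at 0.856 and 0.846 against 0.331 and 0.261. Tropomyosin genes share similar exons. A 12-nt exon of the myosin MYO18A stood at 0.695 and 0.663 against 0.163 and 0.121. BAIAP2, a membrane-curving partner of WAVE, had a 46-nt exon at 0.479 and 0.508 against 0.0318 and 0.0552. MACF1, a linker of actin and microtubules, had an 18-nt exon at 0.641 and 0.649 against 0.243 and 0.218.

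Adhesion and matrix genes changed in 15 of 40 tested (37.5%, against 13.4% of all genes tested), with 20 events in each direction. Those were 18.5% of 216 events, against 6.48% of all, and limma also called 8 of them. CD44 and CTNND1 supplied 18 of these 40 events. Apart from them, DLG1, CD46 and COL16A1, the largest was LTBP4, which binds latent TGF-beta in the matrix. Its 72-nt exon stood at 0.990 and 0.942 in MCF10A and 0.453 and 0.410 in HMLE TWIST, and limma did not call it (adjusted p = 0.0881). Among the 6 largest of the list, taken by each gene's event of largest difference, CD44, LTBP4 and COL16A1 were higher in MCF10A. CTNND1, DLG1 and CD46 were higher in HMLE TWIST. CD44, COL16A1 and DLG1 also had changed events in the other direction.

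Vesicle trafficking genes changed in 27 of 46 tested (58.7%, against 13.4% of all genes tested). The events were 15 higher in HMLE TWIST and 26 higher in MCF10A (20.9% of 196, against 6.48% of all). limma also called 4 of them. Every gene named here is also in the EMT list. KIF21A and SPAG9, which serve transport along microtubules, were higher in HMLE TWIST, and DNM2, ARFGAP2 and USO1 were higher in MCF10A. The sixth was NUMB, an endocytic adaptor that restrains Notch, whose 144-nt exon (chr14:73745989-73746132) stood at 0.503 and 0.448 in MCF10A and 0.0717 and 0.0276 in HMLE TWIST. limma did not call the NUMB exon (adjusted p = 0.0850).

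Receptor and kinase genes changed in 15 of 31 tested (48.4%, against 13.4% of all genes tested). The events were 11 higher in HMLE TWIST and 8 higher in MCF10A (13.6% of 140, against 6.48% of all). limma called none of them. A pair of paralogous kinases that phosphorylate microtubule-associated proteins moved in opposite directions at exons of the same length. MARK3 included its 27-nt exon (chr14:103964839-103964865) at 0.0509 and 0.0530 in MCF10A and 0.481 and 0.476 in HMLE TWIST, a difference of 0.427 (quasi-binomial adjusted p = 1.83e-30, limma 0.0655). MARK2 included its 27-nt exon (chr11:63673560-63673586) at 0.286 and 0.285 in MCF10A and 0.0396 and 0.0723 in HMLE TWIST, a difference of -0.230 (quasi-binomial adjusted p = 4.83e-10, limma 0.107). The exons are identical at 21 of 27 positions, while the neighbouring exons differ, as the printed sequences show.
MARK3: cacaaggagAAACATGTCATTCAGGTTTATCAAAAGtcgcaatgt
MARK2: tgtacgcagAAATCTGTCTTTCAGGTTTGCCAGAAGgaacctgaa
SLK, a kinase of the cytoskeleton, included its 93-nt exon at 0.260 and 0.267 in MCF10A, at 0.00523 in the first HMLE TWIST library, and in none of 152 reads of the second, which allows up to 1.97%. DDR1, a collagen receptor, had an untranslated 56-nt exon at 0.709 and 0.643 against 0.402 and 0.315, not called without the second HMLE TWIST library (adjusted p = 0.121). WNK1, a kinase of ion transport, had a 279-nt exon at 0.872 and 0.968 against 0.756 and 0.566, not called when any 1 library was left out (adjusted p from 0.101 to 0.321, and a difference of -0.164 without the second HMLE TWIST library).

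The changed exons shared features that were not criteria of the call, though the call is not independent of them. The size threshold acts on length-scaled levels, and without length correction 1164 events were changed in place of 1250. A difference of at least 0.1 also needs more use of both forms than the 10 reads of the rarer form that a tested event needs. Taking for each exon its event of most reads, 335 exons were higher in HMLE TWIST, 676 higher in MCF10A and 15788 not changed. Among exons matched to a coding exon of GENCODE 29, the length was a multiple of 3, which keeps the reading frame, in 78.6% (Wilson 95% interval 72.2 to 83.9%) of those higher in HMLE TWIST. The share was 70.4% (65.3 to 74.98%) of those higher in MCF10A and 53.9% (52.8 to 54.9%) of those not changed. Exons of 27 nt or less made up 5.97% (3.90 to 9.04%), 3.85% (2.64 to 5.58%) and 1.46% (1.29 to 1.66%). The form without the exon was an annotated protein-coding transcript for 77.1%, 78.4% and 55.6% of the exons matched to GENCODE 29. Both directions thus lay on the same side of the unchanged exons in each of these features, and the intervals of the changed directions overlap. Exons of decay-targeted transcripts made up 9.68%, 11.8% and 13.4% of the matched exons. The median length was 97, 102 and 113 nt, and the median read number of the shallowest library was 162, 163.5 and 293, so changed and unchanged exons also differed in depth, and the part of depth in these shares was not tested.

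**Figure D5:**
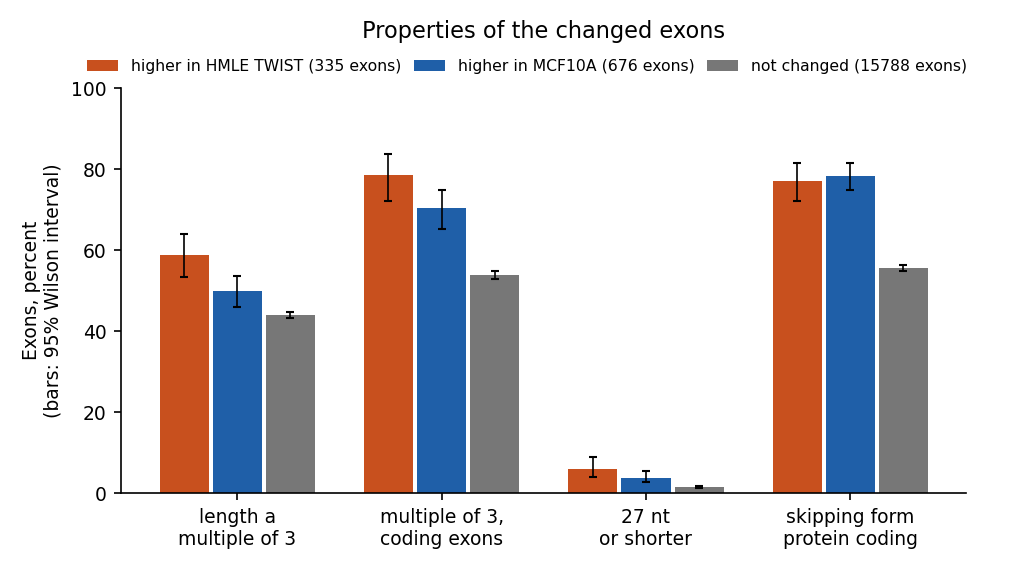
Share of exons (vertical axis, percent) with each feature among the 335 exons higher in HMLE TWIST (orange), the 676 higher in MCF10A (blue) and the 15788 not changed (grey). The coding-exon shares are of 187, 341 and 8542 matched coding exons. The skipping-form shares are of 310, 619 and 14364 matched exons. Bars show Wilson 95% intervals, which cover counting error only. The orange and blue bars exceed the grey bar in each feature.

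Events listed for 1 line only could not enter the comparison. With at least 20 reads in both DMSO libraries of their line and a mean level between 0.1 and 0.9, 796 events of 589 genes were listed for MCF10A only and 932 events of 649 genes for HMLE TWIST only. Of these, 476 and 666 lay in genes with a joined event of at least 20 reads in both DMSO libraries of the other line. CD44 was among the latter, with a 204-nt exon at 0.558 and 0.656 in one of its HMLE TWIST events. The joined events therefore leave out switches in which a form has no read in any library of a line.

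The 4 emetine libraries share no library with the comparison and hold the same contrast of lines in drug-treated cells. Of the changed events 1196 had at least 20 reads in each of them. The line difference had the same sign there at 1000 (83.6%), against 62.6% of the 17439 events not called changed. It had the same sign and a size of at least 0.1 at 606 (50.7%), against 8.26% of the events not called changed. By direction, the sign was kept at 297 of 397 events higher in HMLE TWIST (74.8%) and at 703 of 799 higher in MCF10A (88.0%). The median difference of these events was 0.202 without drug and 0.0713 under emetine in the first direction, and -0.184 and -0.113 in the second. The events were called on the untreated libraries, so a smaller difference in other libraries is not independent of that choice. CAST (0.531 without drug, 0.552 under emetine), USMG5 (-0.479, -0.500) and ME1 (-0.373, -0.386), chosen after their values were seen, had differences of similar size in both.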

How the data were processed

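Junction reads of skipped exons were compared in the 4 DMSO libraries of MCF10A and HMLE TWIST. Per the labels' protocols, the TruSeq libraries were stranded, paired-end and selected for polyA RNA. Reads were aligned with STAR 2.5.3a to GRCh37, per the submitters' processing notes. The authors' deposited tables, in the format of rMATS per the file headers, give inclusion and skipping counts, 2 libraries to a cell. The rMATS version and the annotation are not given in the sources used here. The deposited p-values and difference score compare emetine with control, per the file headers, and were not used. The first sample of each table was taken as the control, from the order in the table's name.

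Inclusion levels were computed from the counts over the deposited effective lengths. Events needed at least 20 reads per library and 10 of the rarer form. The quasi-binomial model (R 4.3.3) took dispersions moderated with limma 3.58.1 and floored at 1, with a two-sided moderated F test and Benjamini-Hochberg adjustment over 19301 events. limma was also run on log2 odds with 0.5 added to each count. On simulated data with 185 of 17825 events shifted by 1.5 log odds, 53 were called, 1 falsely. Of the 74 that moved by at least 0.1, 67.6% were recovered. All simulated events were drawn with the model's own shared dispersion of 1.90. The simulation therefore cannot show how many false calls arise where events differ in their spread. Alternatives changed the model, read minimum, length correction, size threshold, libraries, block and events per exon.

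Per direction, the 12 largest differences at most were named, 1 event per gene, with at least 50 reads per library, no overlap of replicates and a call by limma. Per gene list, the 6 largest were named, 20 for EMT targets, and every tested regulator. The members and lists were chosen with earlier results of these data known. Exons were matched to GENCODE 29 by gene, exon length and intron lengths, without converting coordinates. Printed starts are counted from 1. Some genes and 1 gene list that the rule names are not reported here.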

Additional observations from a re-analysis of the deposited data

Results flagged for a closer look

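Of the 54 changed exons named by rule, 12 showed a line difference under emetine that departed from that in untreated cells. They were picked out by the term for line by treatment in a quasi-binomial model over all 8 libraries (adjusted p below 0.05 over 18635 events, of which 951 passed) together with a departure of at least 0.1. The 951 were counted by adjusted p alone, so they give no background share for the 12. limma called none of these terms, with 2693 at an unadjusted p below 0.05 and a smallest adjusted p of 0.139. In all 12 the line difference was smaller in size under emetine. The exons were named for large differences in the untreated libraries, so a smaller difference in other libraries is not independent of how they were chosen.

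The 9-nt exon of NAV2 departed most, by -0.819 (quasi-binomial adjusted p = 1.56e-12), and its line difference changed sign, with 0.519 without drug and -0.299 under emetine. The 41-nt exon of PLEKHA1 departed by -0.590 (quasi-binomial adjusted p = 1.97e-05), with 0.779 without drug and 0.189 under emetine. That of SPAG9 departed by -0.535 (quasi-binomial adjusted p = 9.03e-09), with 0.682 without drug and 0.147 under emetine.

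Among the other exons higher in HMLE TWIST, the quasi-binomial departures were -0.230 in ARHGEF11 (adjusted p = 0.00585), -0.105 in CLSTN1 (adjusted p = 0.000595), -0.130 in ABI1 (adjusted p = 0.024) and -0.154 in PLOD2 (adjusted p = 0.000101). Among those higher in MCF10A they were 0.105 in CD44 (adjusted p = 0.0136), 0.192 in DNM2 (adjusted p = 2.46e-08), 0.266 in ARFGAP2 (adjusted p = 0.0436), 0.159 in ATP5C1 (adjusted p = 0.0123) and 0.271 in SPTAN1 (adjusted p = 2.89e-08). The cause of these departures was not tested.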

How the results depend on the processing

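The main counts were 1250 changed events, 415 higher in HMLE TWIST and 835 higher in MCF10A. limma on log2 odds gave 36, 15 and 21, and a minimum difference of 0.2 gave 592, 212 and 380. The dispersion of each event alone gave 0, 0 and 0 (smallest adjusted p 0.578), since 2 libraries per line leave few degrees of freedom. With the replicate block the counts were 0, 0 and 0 (smallest adjusted p 0.0579, with 3258 events at an unadjusted p below 0.05). The order of values in a cell was taken as the replicate number, and the correlation of same-numbered deviations was then 0.000787. Since the values carry no number, this cannot show whether the samples are paired. Leaving out 1 library gave 416 to 823 changed events, 140 to 317 higher in HMLE TWIST and 248 to 565 higher in MCF10A. The other 7 settings kept each count within 1.5 times, from 869 to 1316 changed events. Wherever events were called, 58.3 to 69.6% were higher in MCF10A. No setting could reverse the direction of the 54 named exons, since the levels of their libraries did not overlap between the lines. Of the 522 tested events with 20 to 25 reads in the shallowest library, 39 were changed, and a difference under 0.1 was not called at any depth.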
